A study of Mus musculus with 28 samples.

Results

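The 39 genes described here encode the machinery that makes and processes ribosomal RNA, together with the RNA exosome. They were chosen by name as the machinery that RNA-directed 5-fluorouracil (5-FU) toxicity acts on, and all 39 were found among the 55341 gene rows of both count tables. They comprise 10 exosome subunits, 7 snoRNP proteins, 4 nucleolar phosphoproteins and helicases, 6 genes of RNA polymerase I transcription, 5 large subunit and 6 small subunit assembly factors, and the regulator Myc. RNA was sequenced from 28 whole subcutaneous tumors, each from its own mouse. The tumors were grown from AB1-HA, an established BALB/c mesothelioma cell line that carries influenza hemagglutinin, on the right flank of female BALB/c.AusBP mice aged 8 to 10 weeks.

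Treatment began when tumors measured 20 to 25 mm2, and all groups were harvested on day 7. PBS tumors (n = 4) received vehicle, and ICB tumors (n = 5) received 100 µg anti-CTLA-4 and 100 µg anti-PD-L1 followed by 2 further doses of anti-PD-L1. 5-FU tumors (n = 5) received 75 mg/kg 5-FU, and Cisplatin tumors (n = 4) received 6 mg/kg cisplatin. The 5-FU+ICB (n = 5) and Cisplatin+ICB (n = 5) tumors received the drug at the same dose with the same antibodies. PBS and ICB tumors were shared by the 5-FU and the cisplatin count tables, so that all comparisons with PBS rest on the same 4 control tumors. A single transplanted cell line limits the groups as a model of mesothelioma.

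Ribosomal RNA is transcribed in the nucleolus by RNA polymerase I, modified by box C/D and box H/ACA snoRNPs, and assembled with ribosomal proteins by large sets of processing factors. The RNA exosome, a ring of subunits with a cap and attached nucleases, trims pre-rRNA and degrades faulty nuclear RNA. 5-FU is in part incorporated into RNA, where it interferes with pre-rRNA processing, and loss of the nuclear exosome nuclease Exosc10 or its yeast relative is known to sensitize cells to the drug. Proliferating tumor cells make ribosomes at a high rate, and Myc is known to drive many of these genes.

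Libraries held 23541733 to 33950805 estimated counts. The whole tumors also held other cells, and in bulk RNA fewer cells of a type and less RNA per cell cannot be told apart. The mean log2 CPM (CPM being counts relative to library size) of 10 leukocyte markers ran from 3.84 to 4.15 in the PBS tumors and from 5.52 to 6.90 in the ICB tumors. Of 8 mesothelial markers 5 passed the filter on low counts, and their mean log2 CPM ran from 1.76 to 3.69 over all tumors. Msln stood at 311 ± 38.7 CPM (SD, n = 4) and Pdpn at 81.1 ± 27.1 in PBS tumors, whereas the means of Krt8, Krt19 and Wt1 were 2.57, 0.198 and 0.112 CPM. Of the markers not tested, Upk3b was counted 0 to 2 times, Lrrn4 0 to 13 times and Krt18 0 to 543 times (median 3) per tumor. The markers were thus mixed, with Msln and Pdpn abundant and the others low in most tumors. Msln was at 109 ± 66.8 CPM in ICB and 64.6 ± 62.4 in 5-FU+ICB tumors (n = 5 each), and was called lower than in PBS in the latter (log2 fold change -2.28 ± 0.77, adjusted p = 0.0238, edgeR) but not in the former (-1.51 ± 0.76, adjusted p = 0.117). In 5-FU tumors Msln was at 108 ± 52.7 CPM (n = 5), with the highest at 177 and the lowest PBS tumor at 271, and was not called lower. Skeletal muscle markers varied most, with mean log2 CPM from -2.45 to 9.21.

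Levels of the 39 genes varied within groups in a way that followed coding length. Across the 39 genes of 1 library, which are not independent replicates, Spearman's rho between coding length and the deviation from the other tumors of the group was beyond 0.5 in size in 18 of 28 libraries and ran from -0.72 in Cisplatin replicate 4 to 0.80 in Cisplatin replicate 3. Since a deviation is taken from the other tumors of a group, a tumor of one sign gives the others the opposite one. The pattern was not particular to the 39 genes: over 15068 genes rho ran from -0.55 in PBS replicate 2 to 0.52 in PBS replicate 3, and was -0.54 in Cisplatin replicate 4 and -0.53 in Cisplatin+ICB replicate 1. Whether RNA quality had a part in it was not tested. By the size of the difference among the 39 genes Cisplatin+ICB replicate 1 stood apart. There the 19 genes longer than the median of 1446 coding bases had a median deviation of -0.40 log2 and the other 20 genes one of 1.42, a gap of 1.83. In the other libraries the gap ran from -0.56 to 0.53, with PBS replicate 2 at 0.53, 5-FU+ICB replicate 5 at 0.50 and Cisplatin replicate 4 at 0.35.

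In Cisplatin+ICB replicate 1 the long gene Utp20 was at 9.33 CPM against 70.4 to 102 in the other tumors of the group, and Polr1a at 8.91 against 60.3 to 78.6. The short gene Nop10 was at 153 CPM against 23.0 to 26.9, and Exosc5 at 131 against 21.8 to 25.6. In PBS replicate 2, which every comparison with PBS uses, Polr1a was at 23.6 CPM against 47.9 to 105 in the other PBS tumors. Counts without PBS replicate 2 or Cisplatin+ICB replicate 1 are given beside the main results.

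**Figure D1:**
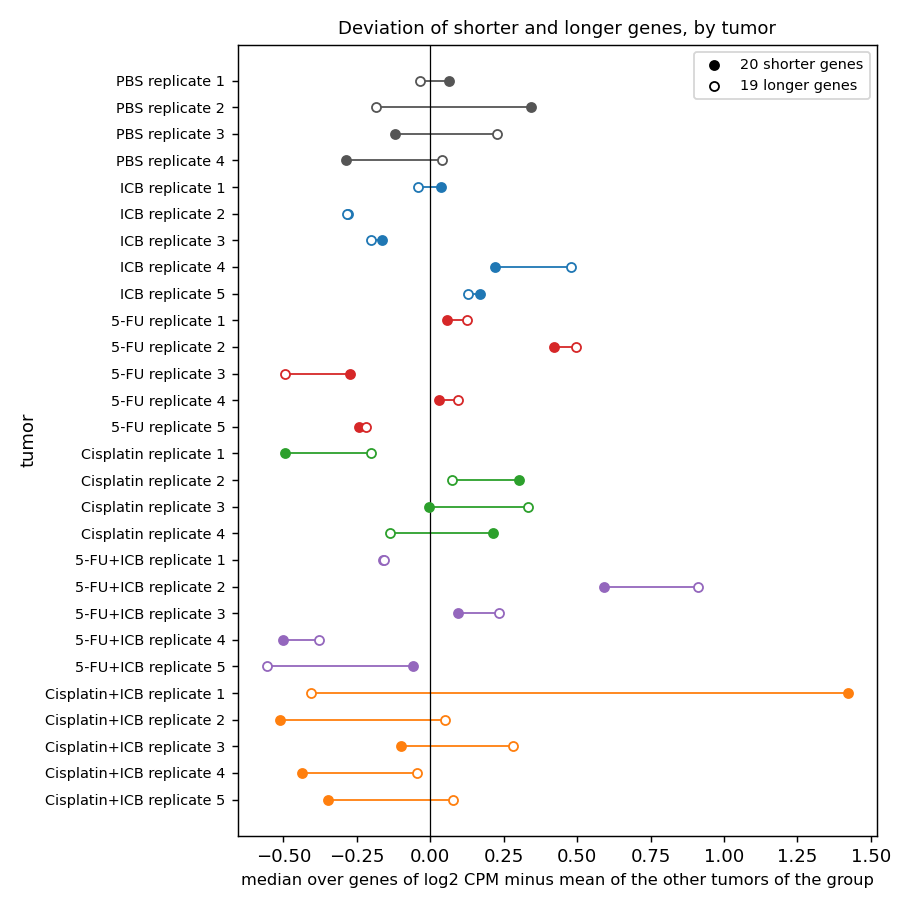
Each row is 1 of the 28 tumors, with the median over the 20 shorter genes (filled) and the 19 longer genes (open) of log2 CPM minus the mean of the other tumors of the group on the x axis. The line joining them is longest in Cisplatin+ICB replicate 1 (from -0.40 to 1.42), and in the other tumors the medians lie at most 0.56 apart.

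The mean log2 CPM over the 39 genes, given as a description without a test, was highest in PBS tumors. It was 6.28 ± 0.08 (SD, n = 4) in PBS, 5.56 ± 0.21 (n = 5) in ICB, 5.96 ± 0.26 (n = 5) in 5-FU, 6.01 ± 0.19 (n = 4) in Cisplatin, 5.73 ± 0.39 (n = 5) in 5-FU+ICB and 5.80 ± 0.17 (n = 5) in Cisplatin+ICB tumors. The difference from PBS was thus -0.72 log2 in ICB, -0.32 in 5-FU, -0.27 in Cisplatin, -0.55 in 5-FU+ICB and -0.48 in Cisplatin+ICB tumors. All ICB tumors, between 5.34 and 5.84, lay under all PBS tumors, between 6.19 and 6.39. The same held for the Cisplatin and the Cisplatin+ICB tumors, whose highest values were 6.16 and 6.05. In contrast, 5-FU replicate 2 at 6.34 and 5-FU+ICB replicate 2 at 6.36 stood within the PBS range, and the other 5-FU+ICB tumors ran from 5.41 to 5.86.

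**Figure D2:**
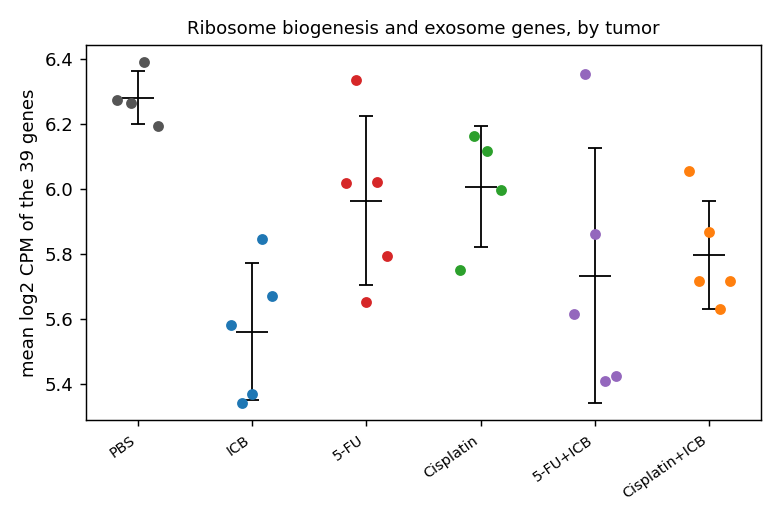
Points are single tumors, with the mean log2 CPM of the 39 genes on the y axis and the 6 treatment groups on the x axis. Horizontal bars are group means and whiskers 1 SD, and the ICB tumors (5.34 to 5.84) lie below the PBS tumors (6.19 to 6.39).

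Levels of the genes in PBS tumors were compared per kilobase of coding sequence. Npm1, a nucleolar chaperone, led with 1469 CPM per kb, followed by the pre-rRNA binding protein Ncl at 366, the H/ACA protein Nop10 at 301 and the H/ACA protein Nhp2 at 246. The lowest levels were those of the polymerase subunit Polr1b at 7.42, the small subunit factor Rrp12 at 8.33, the processome component Utp20 at 9.28 and the largest polymerase subunit Polr1a at 12.4 CPM per kb. Among exosome subunits Exosc8 was highest at 113 CPM per kb and the nuclease Dis3 lowest at 29.7. Counts were of whole transcripts, whereas the divisor was the longest coding sequence alone (192 bases for Nop10). Genes with short coding sequences may thus rank too high. Levels of long and short genes also shift with the length pattern described above.

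To determine how checkpoint blockade bears on these genes, ICB tumors were compared with PBS tumors. Of the 39 genes 26 were lower and none was higher, by edgeR's quasi-likelihood test at a Benjamini-Hochberg adjusted p under 0.05 and a log2 fold change beyond 0.5 in size. This was 66.7% of the genes, whereas 18.8% of the 17916 genes tested were called lower. The median log2 fold change was -0.77 over the 39 genes, all of which were negative, and -0.03 over all genes tested. In 30 of the 39 genes every ICB tumor was below every PBS tumor, against 21.6% of all genes tested. Lower calls covered all 3 cap subunits, 4 of 5 ring subunits and 1 of 2 nucleases of the exosome, all 3 box C/D and all 4 box H/ACA proteins, and all 5 large subunit factors. They covered only 1 of 4 nucleolar phosphoproteins and helicases, 2 of 6 polymerase I genes and 2 of 6 small subunit factors.

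In the exosome, the cap subunit Exosc2 (chr2:31670715-31681349, plus strand, GRCm38) stood at 52.6, 64.2, 47.3 and 40.8 CPM in PBS tumors and at 26.4, 20.8, 17.6, 30.0 and 23.2 in ICB tumors. The groups did not overlap, and the log2 fold change was -1.10 ± 0.23 (SE; adjusted p = 0.00180, edgeR). The ring subunit Exosc8 (chr3:54728678-54735393, minus strand) was at 94.5, 116, 83.5 and 78.5 CPM in PBS and 47.8, 30.2, 30.9, 56.1 and 41.1 in ICB tumors. Here too every ICB tumor was lower, with a log2 fold change of -1.17 ± 0.22 (adjusted p = 0.00102, edgeR).

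The exosome nucleases were less uniform. Dis3 (chr14:99075206-99099770, minus strand), which degrades RNA threaded through the ring, was at 89.9, 84.5, 90.5 and 76.4 CPM in PBS and 49.0, 32.0, 34.3, 61.6 and 46.4 in ICB tumors. It fell by 0.91 ± 0.29 on the log2 scale (adjusted p = 0.0180, edgeR), a call that was lost in 1 of 19 fits with a tumor left out. Exosc10 (chr4:148558429-148582401, plus strand), the nuclear nuclease, was at 92.1, 87.3, 108 and 98.0 CPM in PBS and 65.8, 57.4, 58.6, 87.0 and 62.7 in ICB tumors. Although the groups did not overlap, ICB replicate 4 came within 1 CPM of the lowest PBS tumor, and Exosc10 did not pass the test (log2 fold change -0.51 ± 0.20, adjusted p = 0.0505, edgeR), though it did in 5 of 19 fits with a tumor left out. Exosc9, a ring subunit, had an adjusted p of 0.0280 by edgeR but a log2 fold change of only -0.40. The remaining subunits Exosc1, Exosc3, Exosc4, Exosc5 and Exosc7 were called lower, with log2 fold changes from -0.82 to -0.60. Without PBS replicate 2 Exosc4 and Exosc5 were at -0.46 and -0.45 and no longer called.

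The proteins of the snoRNPs, particles that methylate and pseudouridylate rRNA, were all lower in ICB tumors. Nop56, a box C/D core protein (chr2:130274430-130279313, plus strand), was at 228, 315, 197 and 183 CPM in PBS and 115, 83.9, 67.7, 136 and 90.1 in ICB tumors, without overlap (log2 fold change -1.22 ± 0.28, adjusted p = 0.00310, edgeR). Fibrillarin (Fbl), the box C/D methyltransferase, was at 166, 225, 183 and 157 CPM in PBS and 102, 85.6, 102, 115 and 123 in ICB tumors. It fell by 0.78 ± 0.16 on the log2 scale (adjusted p = 0.00138, edgeR).

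Nhp2, a box H/ACA protein (chr11:51619735-51623714, plus strand), had the largest log2 fold change of the 39 genes. It was at 118, 151, 97.1 and 86.1 CPM in PBS and 46.9, 41.3, 44.3, 49.9 and 55.3 in ICB tumors (-1.24 ± 0.20, adjusted p = 0.000452, edgeR). The ICB tumors were close to each other, with an SD of 5.35 CPM against 28.4 in PBS. Dyskerin (Dkc1), the H/ACA pseudouridine synthase, was at 108, 98.6, 110 and 98.5 CPM in PBS and 56.8, 34.6, 41.1, 64.9 and 53.9 in ICB tumors (log2 fold change -1.03 ± 0.25, adjusted p = 0.00439, edgeR). Nop58, Nop10 and Gar1 had log2 fold changes of -0.98, -1.01 and -0.71, all called lower.

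Of the nucleolar phosphoproteins, Npm1 alone was called. It stood at 1296, 1381, 1339 and 1130 CPM in PBS and 744, 495, 642, 845 and 764 in ICB tumors (log2 fold change -0.86 ± 0.20, adjusted p = 0.00353, edgeR). Ncl ran from 403 to 1208 CPM in PBS and from 457 to 739 in ICB tumors and overlapped (log2 fold change -0.33, adjusted p = 0.329, edgeR). The phosphoprotein Nolc1 and the RNA helicase Ddx21 also overlapped and did not pass, at -0.54 and -0.28.

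For RNA polymerase I, the shared subunit Polr1c (chr17:46243920-46248054, minus strand) was at 69.5, 103, 50.3 and 48.7 CPM in PBS and 37.1, 30.6, 35.2, 40.8 and 40.4 in ICB tumors. PBS replicate 2 was the highest of the PBS tumors, and without it the log2 fold change of -0.88 ± 0.20 (adjusted p = 0.00264, edgeR) became -0.57 and stayed called. Polr1e was at 19.9, 24.4, 16.2 and 15.0 CPM in PBS and 10.7, 9.60, 8.88, 11.6 and 11.9 in ICB tumors (log2 fold change -0.83 ± 0.18, adjusted p = 0.00246, edgeR). The large subunits Polr1a (-0.09) and Polr1b (-0.42), the initiation factor Rrn3 (-0.36) and the rDNA binding factor Ubtf (-0.40) were not called lower, although Rrn3 and Ubtf had adjusted p-values of 0.0274 and 0.0197 by edgeR.

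All 5 assembly factors of the large subunit were called lower. Nop16 (chr13:54584185-54590090, minus strand) had the smallest adjusted p of the 39 genes, with 45.6, 46.3, 35.9 and 31.7 CPM in PBS and 20.3, 18.4, 18.8, 20.8 and 21.4 in ICB tumors (log2 fold change -0.99 ± 0.15, adjusted p = 0.000318, edgeR). Its ICB tumors had an SD of only 1.27 CPM. Pes1, Bop1 and Wdr12, which form a complex needed for the large subunit, had log2 fold changes of -0.69, -0.77 and -0.91, and the methyltransferase Nop2 one of -0.91. The call of Nop2 was lost without PBS replicate 2 (-0.85, adjusted p = 0.0812, edgeR).

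In the small subunit processome, Rrp9, a U3 snoRNP protein, was at 58.2, 83.8, 50.6 and 49.5 CPM in PBS and 29.5, 27.8, 23.6, 33.4 and 29.1 in ICB tumors (log2 fold change -1.07 ± 0.24, adjusted p = 0.00243, edgeR). Utp4 was also called, at -0.69. Bysl had an adjusted p of 0.0182 by edgeR but a log2 fold change of -0.47, and Nop14, Rrp12 and Utp20 overlapped between the groups and had values from -0.34 to -0.19. Myc was at 119, 90.2, 165 and 132 CPM in PBS and 68.7, 76.0, 46.8, 95.5 and 68.6 in ICB tumors. ICB replicate 4 overlapped PBS replicate 2, and Myc fell by 0.79 ± 0.26 on the log2 scale (adjusted p = 0.0217, edgeR), a call lost in 2 of 19 fits with a tumor left out.

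**Figure D3:**
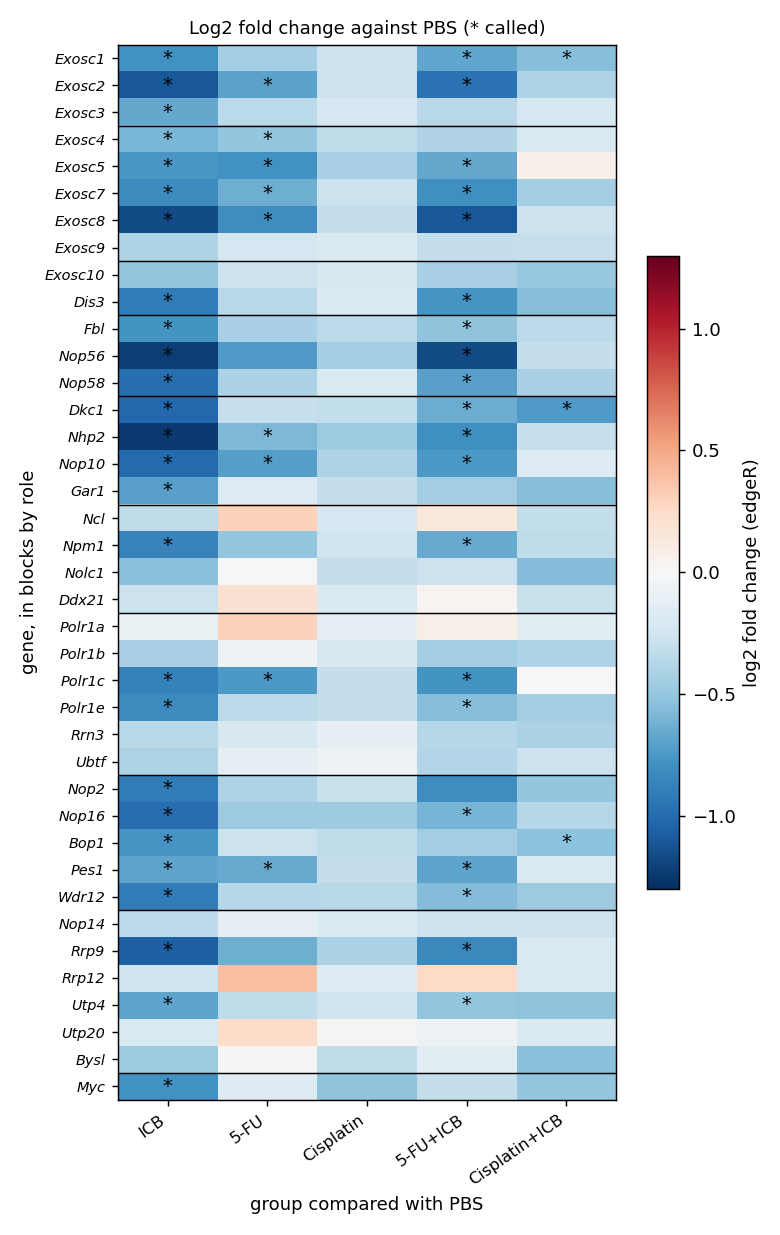
Each row is 1 of the 39 genes, in blocks by role, and each column a group compared with PBS, with the log2 fold change as color and an asterisk where the gene was called. The ICB column is blue throughout with 26 asterisks, the 5-FU+ICB column has 20, the 5-FU column 9, the Cisplatin+ICB column 3 and the Cisplatin column 0.

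With a tumor left out, the number of genes called lower by ICB ranged from 23 to 28, and was 23, all among the 26, without PBS replicate 2, against 12.6% of all genes tested. Lower calls fell on 18 of the 20 shorter genes and 8 of the 19 longer genes, and across the 39 genes Spearman's rho between coding length and log2 fold change was 0.56. In the same comparison 9 of 10 leukocyte markers were called higher (median log2 fold change 2.40) and 8 of 10 proliferation markers lower (median -1.02). Of 8 muscle markers 0 were called, although their median log2 fold change was 2.36. The muscle mean log2 CPM ran from -2.45 to 8.42 in ICB tumors and from 3.15 to 4.28 in PBS tumors. The proliferation mean log2 CPM ran from 7.45 to 7.59 in PBS and from 5.84 to 7.15 in ICB tumors. The part of cell composition and of proliferation in the lower levels of the 39 genes was not tested.

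Promoters of 3 genes that were lower in ICB tumors are shown because they hold a motif known from genes of this pathway: the E-box CACGTG bound by Myc, or the ETS-type motif CCGGAAG. Each is the 250 bases before the RefSeq transcription start (GRCm38.p6), written 5′ to 3′ on the gene's strand, with the motifs in capitals. The regions are chr6:125131633-125131882 (plus strand) for Nop2, chr17:46248046-46248295 (minus strand) for Polr1c and chr14:99099771-99100020 (minus strand) for Dis3.
Nop2: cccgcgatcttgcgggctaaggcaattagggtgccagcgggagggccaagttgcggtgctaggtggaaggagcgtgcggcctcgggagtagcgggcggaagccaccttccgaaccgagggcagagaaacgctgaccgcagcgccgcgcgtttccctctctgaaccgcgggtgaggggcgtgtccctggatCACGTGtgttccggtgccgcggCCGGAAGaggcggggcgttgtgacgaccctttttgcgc
Polr1c: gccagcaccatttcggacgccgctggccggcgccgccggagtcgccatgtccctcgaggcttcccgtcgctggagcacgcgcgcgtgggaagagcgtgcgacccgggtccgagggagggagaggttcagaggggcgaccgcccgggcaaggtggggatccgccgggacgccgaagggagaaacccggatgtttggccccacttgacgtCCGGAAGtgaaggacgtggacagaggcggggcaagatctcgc
Dis3: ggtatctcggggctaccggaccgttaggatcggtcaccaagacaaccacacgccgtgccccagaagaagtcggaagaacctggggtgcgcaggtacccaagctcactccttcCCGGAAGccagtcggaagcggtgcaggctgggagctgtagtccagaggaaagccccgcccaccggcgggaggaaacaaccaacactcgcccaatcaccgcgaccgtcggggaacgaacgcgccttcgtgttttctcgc
The Nop2 window holds an E-box that begins 60 bases and an ETS motif that begins 38 bases before the start. The ETS motif of Polr1c begins 42 bases and that of Dis3 138 bases before it.

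RefSeq windows from 250 bases before to 50 after the start were at hand for 32 of the 39 genes, and not for Bop1, Exosc4, Exosc9, Fbl, Myc, Npm1 and Rrp12. Searched on both strands, CACGTG was in 6 of the 32 genes (18.8%), against 8.09% of 27025 genes with a window: Exosc5, Nop2, Pes1, Rrn3, Utp20 and Utp4. CCGGAAG was in 11 of 32 (34.4%, against 9.93%), and the NRF1 motif GCGCATGC in 3 of 32 (9.38%, against 3.05%). Matches of different motifs overlapped in 0 of 40 windows. These are matches of letters, and the shares were not tested.

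To determine how 5-FU alone bears on the genes, 5-FU tumors were compared with PBS tumors. Of the 39 genes 9 (23.1%) were lower and none was higher, against 13.0% of all genes tested called lower. These were the exosome subunits Exosc2, Exosc4, Exosc5, Exosc7 and Exosc8, the H/ACA proteins Nhp2 and Nop10, the polymerase subunit Polr1c and the large subunit factor Pes1. The median log2 fold change was -0.35, and it was -0.01 over all genes tested. Every 5-FU tumor was below every PBS tumor in 7 of the 39 genes (17.9%), which is near the 17.8% of all genes tested. Of the calls, 8 were among the 20 shorter genes and 1 among the 19 longer genes.

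Exosc5, a ring subunit (chr7:25659164-25671368, plus strand), was at 41.9, 65.2, 32.5 and 33.0 CPM in PBS and 26.0, 27.2, 24.2, 25.7 and 23.2 in 5-FU tumors (log2 fold change -0.78 ± 0.18, adjusted p = 0.00849, edgeR). The groups did not overlap, and PBS replicate 2 was the highest tumor. Exosc8 was at 62.2, 69.1, 36.6, 55.0 and 43.5 CPM in 5-FU tumors, all under the PBS values above (-0.81 ± 0.22, adjusted p = 0.0156, edgeR). Exosc2, at 33.9, 44.2, 20.3, 32.8 and 27.1 CPM, overlapped PBS (-0.70 ± 0.23, adjusted p = 0.0351, edgeR).

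Nop10 was at 62.2, 82.3, 43.2 and 43.5 CPM in PBS and 34.6, 37.8, 39.3, 34.5 and 30.8 in 5-FU tumors (log2 fold change -0.72 ± 0.21, adjusted p = 0.0210, edgeR). Pes1 was at 151, 200, 142 and 130 CPM in PBS and 95.7, 123, 87.2, 99.3 and 90.6 in 5-FU tumors (-0.66 ± 0.16, adjusted p = 0.00936, edgeR). Neither gene overlapped between the groups. Polr1c was at 38.0, 50.8, 38.1, 38.7 and 38.2 CPM in 5-FU tumors, and only 5-FU replicate 2 reached the PBS range (-0.75 ± 0.20, adjusted p = 0.0140, edgeR).

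These 9 calls depended on PBS replicate 2. Without it 0 of the 39 genes were called (9 had an unadjusted p under 0.05, or 23.1%, against 30.2% of all genes tested), and the share of all genes called lower went from 13.0% to 4.14%. Of the calls lost, Exosc8 was then at -0.65 (adjusted p = 0.0745, edgeR) and Exosc5 at -0.48 (adjusted p = 0.0318, edgeR, under the fold threshold). All 28 tumors in one fit also gave 0 calls (6 at an unadjusted p under 0.05), against 1.61% of all genes called lower. Leaving out PBS replicate 1 or 5-FU replicate 5 gave 4 calls, against 7.04% and 8.74% of all genes, and leaving out 5-FU replicate 2 gave 13, against 13.5%. With other single tumors left out as well, the call of Exosc2 was lost in 6 of 19 fits and that of Nop10 in 3. DESeq2 called 8 of the 9.

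The nuclease Exosc10 was at 85.1, 102, 60.0, 81.6 and 69.1 CPM in 5-FU tumors, across and below the PBS range, and was not called (log2 fold change -0.27 ± 0.20, adjusted p = 0.332, edgeR). Dis3 was at 70.2, 90.6, 41.7, 72.3 and 55.5 CPM (-0.36 ± 0.29, adjusted p = 0.351, edgeR). Fbl (-0.42, adjusted p = 0.0538), Dkc1 (-0.30, adjusted p = 0.379) and Myc (-0.16, adjusted p = 0.662) did not pass edgeR's test either. Of the 39 genes 5 had positive values, led by Rrp12 at 0.39, Polr1a and Ncl, both at 0.30, and none of them passed. Of the markers, 6 of 10 leukocyte and 4 of 7 fibroblast markers were called higher in the same comparison, and 5 of 10 proliferation markers lower. Of 8 muscle markers 0 were called, but their median log2 fold change was 2.68. Their mean log2 CPM was 3.15 to 4.28 in PBS tumors, 0.07 in 5-FU replicate 2 and up to 7.54 in 5-FU tumors. Msln, at 45.0 to 177 CPM against 271 to 358 in PBS, was not called lower. The part of all these markers in the result was not tested.

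To determine how the combination bears on the genes, 5-FU+ICB tumors were compared with PBS tumors. Whether it differed from ICB or 5-FU alone is addressed by the comparisons further below. Of the 39 genes 20 (51.3%) were lower and none was higher, against 18.7% of all genes tested called lower. The median log2 fold change was -0.52, against -0.04 over all genes tested. All 3 box C/D proteins, 3 of 4 box H/ACA proteins, 3 of 5 large subunit factors and 6 of 10 exosome subunits were called. Every 5-FU+ICB tumor was below every PBS tumor in 7 of the 39 genes (17.9%), against 14.7% of all genes tested.

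Exosc8 was at 41.1, 61.2, 42.1, 38.3 and 33.0 CPM in 5-FU+ICB tumors, all below PBS (log2 fold change -1.11 ± 0.22, adjusted p = 0.00151, edgeR). Nop56 was at 83.0, 169, 109, 92.5 and 61.7 CPM, also without overlap (-1.16 ± 0.28, adjusted p = 0.00403, edgeR). Exosc2 stood at 23.0, 40.6, 26.7, 21.7 and 19.5 CPM (-0.96 ± 0.23, adjusted p = 0.00396, edgeR). Replicate 2 was the highest 5-FU+ICB tumor for each of the 3 genes.

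Pes1 was at 92.5, 125, 106, 76.7 and 83.3 CPM (log2 fold change -0.68 ± 0.16, adjusted p = 0.00300, edgeR), and Polr1c at 38.2, 47.8, 39.6, 32.0 and 40.9 (-0.78 ± 0.20, adjusted p = 0.00535, edgeR). Both were below all PBS tumors, and without PBS replicate 2 Polr1c was at -0.47 and no longer called. Nhp2 (59.1, 95.9, 67.8, 43.2 and 58.9 CPM; -0.80 ± 0.20, adjusted p = 0.00510, edgeR) overlapped PBS through replicate 2.

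Rrp9, Npm1 and Dis3 overlapped PBS through the same tumor. Rrp9 was at 28.0, 55.8, 37.7, 24.9 and 23.7 CPM (log2 fold change -0.83 ± 0.24, adjusted p = 0.00951, edgeR), and Npm1 at 652, 1255, 815, 580 and 762 (-0.65 ± 0.20, adjusted p = 0.0163, edgeR). Dis3 was at 39.1, 93.9, 52.4, 39.2 and 24.4 CPM (-0.77 ± 0.29, adjusted p = 0.0381, edgeR). Its highest tumor exceeded every PBS tumor, and the call was lost in 7 of 19 fits with a tumor left out.

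Fbl (-0.52, adjusted p = 0.0126) and Dkc1 (-0.64, adjusted p = 0.0449) were called lower by edgeR, but with a tumor left out these calls were lost in 4 and 13 of 19 fits. Exosc10, at 64.0, 107, 81.0, 61.1 and 41.0 CPM, was not (-0.42 ± 0.20, adjusted p = 0.0947, edgeR), nor was Myc, which varied from 58.7 to 155 CPM (-0.31, adjusted p = 0.333, edgeR). 5-FU+ICB replicate 2 was at PBS levels for most of the genes, and it also had the lowest leukocyte mean (4.31 log2 CPM, against 6.36 to 7.19 in the other tumors of the group) and the highest proliferation mean (7.51 against 6.17 to 6.81). Without this tumor 26 of the 39 genes were called lower, against 23.6% of all genes tested, and without PBS replicate 2 only 8, against 12.0%, all among the 20 (Exosc1, Exosc2, Exosc7, Exosc8, Nop56, Nhp2, Npm1 and Pes1). It was 13 without 5-FU+ICB replicate 1 and likewise without replicate 4, against 14.8% and 15.9%. In the comparison 7 of 10 leukocyte markers and 2 of 7 fibroblast markers were called higher and 7 of 10 proliferation markers lower. Of 5 mesothelial markers 3 were higher (Wt1, Krt19 and Pdpn) and 1 lower (Msln). Wt1 and Krt19 were low, with medians of 1.27 and 0.856 CPM in 5-FU+ICB tumors (highest 2.78 and 48.9). Of 8 muscle markers 0 were called, with a median log2 fold change of 3.29. The part of all these markers in the result was not tested.

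**Figure D4:**
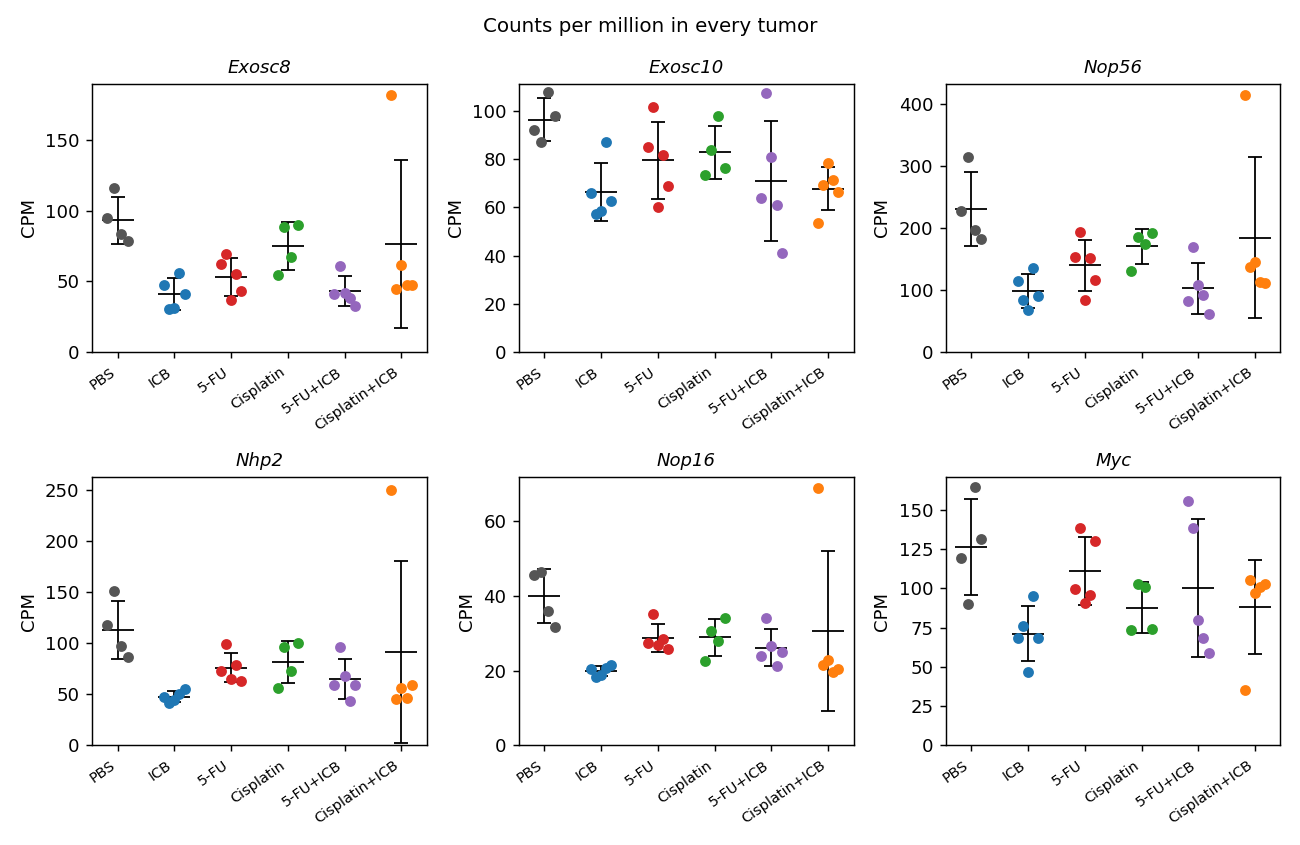
CPM of 6 genes in every tumor, with the treatment groups on the x axes, points for tumors, horizontal bars for group means and whiskers for 1 SD. ICB tumors are below the PBS tumors except for Myc, and the high outlying Cisplatin+ICB point of Exosc8, Nop56, Nhp2 and Nop16 is replicate 1 (181, 415, 250 and 68.8 CPM).

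Cisplatin was compared with PBS in the same way. By edgeR 0 of the 39 genes were called, as were 0% of the 17819 genes tested in either direction, and DESeq2 also called 0 of the 39. At an unadjusted p under 0.05 the count was 1 of 39 (Bop1), or 2.56%, against 1.78% of all genes tested, and it was 7 of 39 (17.9%), against 3.97%, when Cisplatin+ICB replicate 1, which shares the fit, was left out. Even so 38 of the 39 log2 fold changes were negative, with a median of -0.28 against -0.01 over all genes tested. Exosc10 was at 73.6, 83.9, 97.9 and 76.3 CPM, Dis3 at 64.1, 74.1, 85.1 and 74.5, and Myc, with the lowest value (-0.52), at 73.2, 103, 101 and 74.0. All 3 genes overlapped PBS. No marker of leukocytes or proliferation was called in this comparison (0 of 20, edgeR).

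In Cisplatin+ICB tumors 3 of the 39 genes (7.69%) were called lower than in PBS, against 1.40% of all genes tested. These were Dkc1 (log2 fold change -0.73 ± 0.18, adjusted p = 0.0296, edgeR), Exosc1 (-0.55 ± 0.15, adjusted p = 0.0353) and Bop1 (-0.54 ± 0.15, adjusted p = 0.0410). Dkc1 was at 67.3, 55.3, 74.1, 50.8 and 61.9 CPM, all below PBS. Every Cisplatin+ICB tumor was below every PBS tumor in 7 of the 39 genes (17.9%), against 4.69% of all genes tested. Among these were Exosc10, at 53.8, 69.2, 78.3, 71.4 and 66.4 CPM (-0.49, adjusted p = 0.0643, edgeR), and Dis3, at 59.8, 52.2, 75.4, 45.7 and 55.4 CPM (-0.55, adjusted p = 0.0836, edgeR).

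Here replicate 1, the library with the largest length gap, decided the count. Without it 23 of the 39 genes were called lower, including the 3, against 17.1% of all genes tested, and the median log2 fold change moved from -0.34 to -0.60. Without PBS replicate 2 as well the count was 19 (48.7%), against 10.4% of all genes tested. With single tumors left out the count was 0 without any 1 of PBS replicates 1, 3 and 4 or of Cisplatin+ICB replicates 2, 4 and 5, 1 without PBS replicate 2 or Cisplatin replicate 4, and 6 without Cisplatin+ICB replicate 3, where 2.44% of all genes tested were called lower. DESeq2 called 1. Replicate 1 also had the lowest leukocyte mean (3.85 log2 CPM against 4.66 to 6.40) and fibroblast mean (6.71 against 8.51 to 8.83) of the group and the highest proliferation mean (7.55 against 6.61 to 7.02). In the comparison over all 5 tumors, 7 of 10 leukocyte markers were called higher (median log2 fold change 1.53) and 1 of 10 proliferation markers lower. The part of these differences in the result was not tested.

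To ask what the drugs added to ICB, the combinations were compared with ICB alone. In 5-FU+ICB against ICB 0 of the 39 genes were called by edgeR and 0 by DESeq2, where 0.162% of all genes tested were called lower. At an unadjusted p under 0.05, 4 genes (10.3%) were higher, Nop16, Rrp12, Bysl and Nhp2, against 10.9% of all genes tested in either direction. Nop16 was at 23.8, 34.2, 26.6, 21.3 and 25.0 CPM in 5-FU+ICB tumors (log2 fold change 0.39 ± 0.14, adjusted p = 0.306, edgeR), and overlapped ICB in replicate 4 only. Rrp12, an export and processing factor of the small subunit, was at 20.0, 24.5, 25.9, 31.7 and 30.0 CPM in ICB and 33.8, 59.1, 38.4, 29.4 and 28.1 in 5-FU+ICB tumors (0.51 ± 0.20, adjusted p = 0.361, edgeR). Bysl, another small subunit factor, was at 29.5, 26.0, 28.7, 32.5 and 33.3 CPM in ICB and 36.4, 51.3, 40.0, 26.6 and 35.8 in 5-FU+ICB tumors (0.33 ± 0.14, adjusted p = 0.398, edgeR). The median over the 39 genes was 0.20, and 0.01 without 5-FU+ICB replicate 2.

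In Cisplatin+ICB against ICB 0 of the 39 genes were called by either tool, as were 0% of all genes tested in either direction (edgeR). At an unadjusted p under 0.05, 8 genes (20.5%) were higher, with the smallest p for Nop56 (log2 fold change 0.91 ± 0.33) and the largest value for Nhp2 (0.94 ± 0.40), against 15.9% of all genes tested. Nop56 was at 415 CPM and Nhp2 at 250 in Cisplatin+ICB replicate 1, and at 112 to 145 and 45.1 to 58.9 in the other tumors of the group. Without that library the Nop56 log2 fold change was 0.39 ± 0.21 with an unadjusted p of 0.0796, and 5 genes (12.8%, against 9.19% of all genes) had an unadjusted p under 0.05. The median over the 39 genes of 0.37 became 0.21.

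ICB added to a drug gave no calls among the 39 genes. In 5-FU+ICB against 5-FU 0 of the 39 genes and 0% of all genes tested were called lower by edgeR, and DESeq2 called none of the 39. Ubtf was the 1 gene (2.56%) with an unadjusted p under 0.05 (log2 fold change -0.27 ± 0.12), against 16.6% of all genes tested. In Cisplatin+ICB against Cisplatin the calls were likewise 0 of 39 by both tools, and edgeR called 0% of all genes tested lower. Dkc1 was the 1 gene with an unadjusted p under 0.05 (-0.42 ± 0.18), against 14.2%. Higher calls over all genes are not given here for these 2 comparisons. Without both PBS replicate 2 and Cisplatin+ICB replicate 1 Cisplatin+ICB against Cisplatin gave 6 lower calls (15.4%), against 7.49% of all genes tested.

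The drugs were compared directly in 5-FU against Cisplatin tumors. Neither edgeR nor DESeq2 called any of the 39 genes (0 of 39), where edgeR called 0.270% of all 18521 genes tested lower, and 0 of 39 had an unadjusted p under 0.05, against 15.5% of all genes tested. Rrp12 had the smallest p, with 38.8, 54.1, 30.9, 49.1 and 36.4 CPM in 5-FU and 28.2, 30.3, 35.5 and 20.9 in Cisplatin tumors (log2 fold change 0.54 ± 0.29, adjusted p = 0.374, edgeR). Bysl was at 38.0, 53.9, 35.4, 45.2 and 34.6 CPM in 5-FU and 29.4, 36.6, 38.0 and 30.1 in Cisplatin tumors (0.30 ± 0.18, adjusted p = 0.413, edgeR). Ddx21 was at 232, 305, 179, 247 and 226 CPM in 5-FU and 179, 189, 218 and 149 in Cisplatin tumors (0.37 ± 0.24, adjusted p = 0.457, edgeR). All 3 genes overlapped between the drugs. Among exosome genes the smallest p was that of Exosc8, with a log2 fold change of -0.49 ± 0.33 (unadjusted p = 0.143, edgeR, not called).

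The interaction asked whether the change from ICB to 5-FU+ICB differed from that from PBS to 5-FU. By edgeR 0 of the 39 genes were called, as were 0.0112% of all genes tested with a positive and 0.0781% with a negative term. At an unadjusted p under 0.05, 17 genes (43.6%) had a positive term, against 23.9% of all genes tested in either direction. The median term was 0.62 log2, against 0.03 over all genes tested, and the smallest adjusted p was that of Nop16 (0.86 ± 0.21, adjusted p = 0.0665, edgeR). DESeq2 called 7 of the 39 (17.9%) as positive, namely Nop16, Nhp2, Exosc4, Exosc5, Nop10, Fbl and Pes1, against 5.38% of the genes it tested. A positive term here means that the sum of the single decreases exceeded the decrease in the combination. Without PBS replicate 2 edgeR called 0 of the 39 genes and 0% of all genes tested, 14 of the 39 (35.9%, against 18.3% of all genes) had an unadjusted p under 0.05, and the median term was 0.51. The terms of Exosc5 and Pes1 then moved from 0.88 to 0.57 and from 0.66 to 0.48. The PBS tumors enter this term, and it was smaller for longer genes (Spearman's rho -0.77 across the 39 genes).

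The other genes of the same pathways were given by a wider list of 149, of which 139 were tested. In ICB tumors 66 (47.5%) were lower and 4 (2.88%) higher, where 18.8% of all genes tested were lower and 19% higher. In 5-FU tumors 37 (26.6%) were lower and 2 (1.44%) higher, where 13.0% of all genes were lower and 9.98% higher. In 5-FU+ICB tumors 56 (40.3%) were lower and 5 (3.6%) higher, where 18.7% of all genes were lower and 21.9% higher (edgeR, against PBS). Without PBS replicate 2 the lower calls were 52 (37.4%, against 12.6% of all genes) with ICB, 10 (7.19%, against 4.14%) with 5-FU and 42 (30.2%, against 12.0%) with 5-FU+ICB. In Cisplatin+ICB tumors 4 (2.88%, against 1.40%) were lower and 1 (0.719%, against 4.7%) higher, and in Cisplatin tumors none was called. Without Cisplatin+ICB replicate 1 the Cisplatin+ICB count was 58 lower (41.7%, against 17.1% of all genes) and 4 higher (2.88%, against 18.2%). In the order ICB, 5-FU and 5-FU+ICB, the lower calls were 9, 7 and 9 of 14 further polymerase I genes and 7, 7 and 6 of 10 further snoRNP and assembly genes. They were 23, 11 and 19 of 44 small subunit factors and 23, 9 and 19 of 49 large subunit factors. The 9 large subunit factors lower with 5-FU were 18.4% of their list. Of 12 further exosome genes and cofactors 2 (16.7%) were lower in each of these comparisons, near the share of all genes tested. Wdr61, of the cytoplasmic SKI complex that feeds the exosome, was one of them each time, with log2 fold changes of -1.03 ± 0.18, -0.96 ± 0.18 and -1.09 ± 0.19 (adjusted p = 0.000718, 0.00421 and 0.000722, edgeR).

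The wider genes with the smallest p in 5-FU against PBS included further subunits shared by RNA polymerases, Polr1d (log2 fold change -0.93 ± 0.19, adjusted p = 0.00505, edgeR) and Polr2e (-0.87 ± 0.19, adjusted p = 0.00731). In snoRNP assembly they were Znhit3 (-1.35 ± 0.31, adjusted p = 0.00834, edgeR) and the U3 and box C/D protein Snu13 (-0.65 ± 0.17, adjusted p = 0.0150). For the small subunit they were the helicase Ddx49 (-0.65 ± 0.11, adjusted p = 0.00181, edgeR) and the kinase Riok1 (-0.76 ± 0.14, adjusted p = 0.00352). For the large subunit they were Pak1ip1 (-0.79 ± 0.19, adjusted p = 0.00869, edgeR) and Nip7 (-0.97 ± 0.24, adjusted p = 0.0109). Rbm7, of the nuclear exosome targeting complex, was the other exosome cofactor lower with 5-FU (-0.68 ± 0.22, adjusted p = 0.0358, edgeR). Without PBS replicate 2 the calls of Snu13 (-0.48), Nip7 (-0.57) and Rbm7 (-0.29) in this comparison were lost, and those of the other genes named here were not.

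Higher calls came from the Myc network, the proteins that pair with Myc, with its partner Max or with the related protein Mlx. Of its 10 genes tested, 4 (40%) were higher and 2 lower with ICB, where 19% of all genes tested were higher. With 5-FU 2 (20%, against 9.98%) were higher and 1 lower, and with 5-FU+ICB 5 (50%, against 21.9%) were higher and 1 lower. Mxd1, which opposes Myc at its targets, had log2 fold changes of 1.82 ± 0.34 with ICB, 1.23 ± 0.33 with 5-FU and 1.63 ± 0.34 with 5-FU+ICB. The 5-FU call of Mxd1 was lost without PBS replicate 2 (1.19, adjusted p = 0.0566, edgeR). Mlxip, a glucose-responsive factor of the network, had 1.55 ± 0.21, 1.07 ± 0.21 and 1.51 ± 0.21. Max and Mxd3 are named after their values were seen. Max rose by 1.02 on the log2 scale with ICB and by 1.02 with 5-FU+ICB, while Mxd3 fell in all 3 comparisons, with log2 fold changes of -1.52, -0.92 and -0.98. Which cells of the tumors these changes came from was not tested.

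Across single tumors, the mean over the 39 genes was set beside the marker lists, without a test. In PBS tumors the leukocyte mean was 3.84 to 4.15 log2 CPM and the mean of the 39 genes 6.19 to 6.39, and in ICB tumors they were 5.52 to 6.90 and 5.34 to 5.84. In 5-FU+ICB tumors the leukocyte mean was 4.31 to 7.19 and the mean of the 39 genes 5.41 to 6.36. Among the Cisplatin tumors, replicate 1 had the highest leukocyte mean (4.70) and the lowest mean of the 39 genes (5.75). 5-FU replicate 3, with a leukocyte mean of 6.59, was at 5.65, and 5-FU replicate 2, with 4.92, at 6.34. Other tumors did not follow this order. 5-FU replicates 1 and 4 had lower leukocyte means (4.72 and 4.33) than 5-FU replicate 2, but both were at 6.02. ICB replicate 5 was above ICB replicate 1 both in leukocyte mean (6.56 against 5.92) and in the 39 genes (5.67 against 5.58). The proliferation mean moved with the 39 genes within groups too: in 5-FU+ICB the tumor with 7.51 was at 6.36 and the tumor with 6.17 at 5.42.

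**Figure D5:**
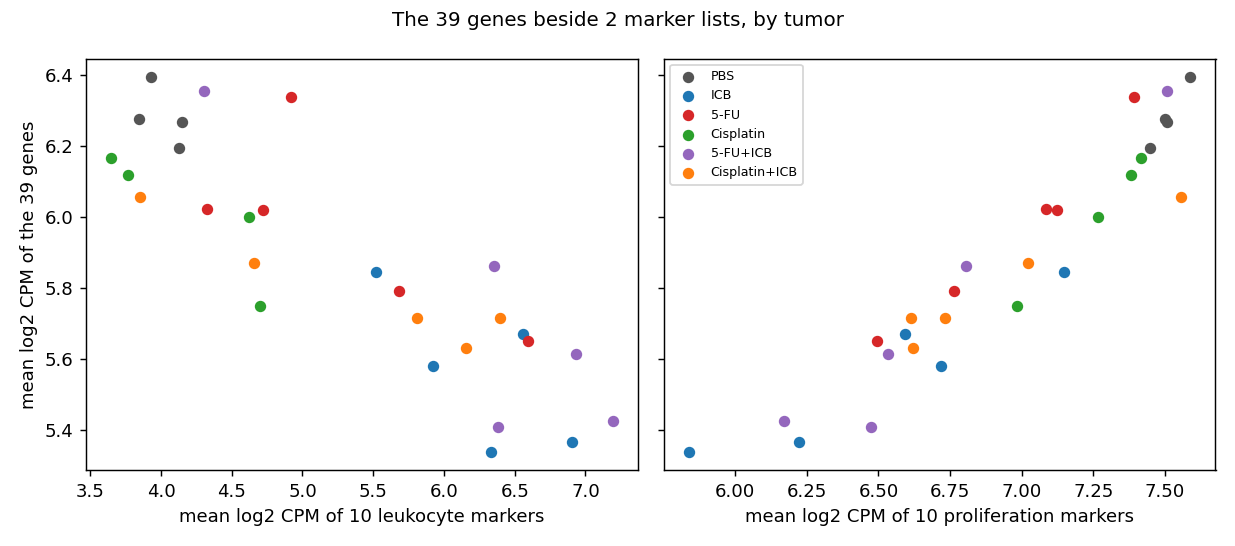
Each point is a tumor, colored by treatment, with the mean log2 CPM of the 39 genes (y axis) against that of 10 leukocyte markers (left) or 10 proliferation markers (right). The 39 genes descend to the right on the left panel and ascend on the right panel, and 5-FU+ICB replicate 2 (6.36) lies at the height of the PBS tumors, with a leukocyte mean (4.31) just above theirs (3.84 to 4.15).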

How the data were processed

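RNA-seq was measured in 28 tumors. The authors assigned reads to GRCm38/mm10 transcripts with kallisto (version 0.46.0, after bcl2fastq 2.20.0.422, both per the submitters' processing notes) and deposited 2 gene-level tables of estimated counts, made with tximport, for the 5-FU and the cisplatin experiment. Both tables share 9 PBS and ICB tumors. Because 23.7% of the values were not exactly whole (no tolerance was applied), the deposited estimated counts were rounded before testing. Estimated counts divide reads among similar transcripts, so levels of genes with near-identical copies are uncertain. Strandedness is not given in the sources used here.

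Tests used edgeR 4.0.16 in R 4.3.3 (limma 3.58.1), with filterByExpr, TMM scaling and the quasi-likelihood test, fitted on all genes of a table (17916 and 17819 genes) or, for 5-FU against Cisplatin, on both tables joined (18521 genes). P-values were adjusted by Benjamini and Hochberg over all genes tested. A gene was called at an adjusted p under 0.05 with a log2 fold change beyond 0.5 in size. CPM per tumor used TMM library sizes, and log2 CPM a prior count of 2. The groups were those of the labels, and p-values are two-sided. No 2 tumors of a group had identical values (highest correlation 0.987). The statistics were tested on simulated counts. DESeq2 1.42.0, other filters, scalings and priors, a replicate block, a joint fit and leaving out each tumor were alternatives. Coding length and coordinates came from GENCODE M21 and promoters from RefSeq.

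The 39 genes and all lists were chosen with earlier results of these data known. Values per tumor were given for Myc, Exosc10, Dis3, Fbl and Dkc1 and, in each role and main comparison, for the called genes with the smallest p and the largest fold change. For the wider lists, the 2 called genes with the smallest p in 5-FU against PBS were named.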

Additional observations from a re-analysis of the deposited data

Results flagged for a closer look

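In groups of 4 or 5 tumors, Dixon's test at its 95% critical value was applied to 21 of the features described above, giving 126 group tests, of which 18 (14.3%) singled out a tumor. Chance alone flags about 1 in 20 groups, and the genes of 1 library are not independent. In 16 cases the tumor was Cisplatin+ICB replicate 1. It was high, in log2 CPM, for Fbl (8.16), Exosc8 (7.50), Nop56 (8.70), Nhp2 (7.97), Npm1 (10.9), Polr1e (4.80), Polr1c (7.61), Nop16 (6.11), Rrp9 (7.12), Exosc5 (7.04), Nop10 (7.26) and Pes1 (8.21). It was low for Myc (5.14), Rrp12 (3.24), Bysl (4.24) and Ddx21 (6.39). The other cases were 5-FU replicate 2, high for Polr1c (5.67), and ICB replicate 4, high for Pes1 (6.76).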

How the results depend on the processing

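Over the 44 pairs of gene and comparison that were re-run under the other settings, and the counts and means below, 0 values reversed direction. The other genes named above were not among them, except as given above without PBS replicate 2. With a tumor left out the calls ranged from 23 to 28 for ICB against PBS, 0 to 13 for 5-FU, 8 to 26 for 5-FU+ICB, 0 to 0 for Cisplatin, 0 to 23 for Cisplatin+ICB, 0 to 1 for 5-FU+ICB against 5-FU and 0 to 7 for the interaction, and were 0 to 0 in the other comparisons. The interaction gave 7 calls without PBS replicate 3 or 5-FU+ICB replicate 4 and 6 without PBS replicate 4, and DESeq2 gave 7. The difference of the mean log2 CPM from PBS ranged from -0.79 to -0.67 for ICB, -0.41 to -0.24 for 5-FU, -0.33 to -0.19 for Cisplatin, -0.70 to -0.47 for 5-FU+ICB and -0.55 to -0.44 for Cisplatin+ICB. Without a filter on low counts the calls were 4 for 5-FU, 12 for 5-FU+ICB and 0 for Cisplatin+ICB, against 3.13%, 6.44% and 0.119% of all genes called lower, and with all 28 tumors in one fit 0, 10 and 0, against 1.61%, 12.5% and 0.939%. Cisplatin+ICB gave 1 call with DESeq2, with DESeq2 size factors and with at least 10 counts in every tumor. The cause of these changes was not tested. The DESeq2 Wald test moved the median of all genes by up to 0.16 on the log2 scale, and dropping the filter by -0.18.

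Replicate numbers of the labels did not pair the tumors: over 66 pairs with the same number in different groups, the correlation of deviations from the group means had a median of -0.02 and ran from -0.63 to 0.66, with 21 pairs over 0.1. With the replicate block the calls were 25 for ICB, 10 for 5-FU, 18 for 5-FU+ICB and 0 for Cisplatin+ICB. The share of all genes called with the block is not given here, so these counts cannot be set against it.

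The following were chosen after seeing the data. Leaving out both PBS replicate 2 and Cisplatin+ICB replicate 1 gave 0 calls for 5-FU, 8 for 5-FU+ICB, 19 for Cisplatin+ICB and 6 for Cisplatin+ICB against Cisplatin, where 4.14%, 12.0%, 10.4% and 7.49% of all genes tested were called lower. Removing each tumor's trend on coding length gave 31 calls for ICB, 24 of them among the 26, against 19.4% of all genes, and 4 for 5-FU, 3 of them among the 9, against 9.89%.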
